A study of Mus musculus with 3 samples.

Results

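The BAF complex is a large machine that uses the energy of ATP to slide or evict nucleosomes. Several of its positions can be filled by either of 2 or more closely related proteins, and cells exchange these paralogues as they specialise. In mESCs the complex, known as esBAF, is built around Smarca4 (BRG1), Arid1a (BAF250a), Smarcc1 (BAF155), Smarcd1 (BAF60a) and Actl6a (BAF53a). Their relatives Smarca2 (BRM), Arid1b (BAF250b), Smarcc2 (BAF170), Smarcd3 (BAF60c) and Actl6b (BAF53b) are better known from differentiated cells: Smarcd3 from heart and muscle, and Actl6b from neurons. These 10 genes were followed here on microarrays of PD-treated mESCs, with the first 5 taken as the stem cell set and the other 5 as the other paralogues.

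J1 is a mouse embryonic stem cell line of the 129S4/SvJae strain, kept without feeder cells on gelatin with knockout serum replacement and 1000 U/mL of LIF, the cytokine that sustains mESCs. PD0325901 (PD) inhibits the kinase MEK and thereby blocks ERK signalling. All 3 samples were RNA from J1 mESCs given 1 µM PD for 24 h, from independent experiments per the methods, and each was hybridised with Cy3 to an Agilent array of its own. The 3 arrays form 1 group, so no effect of PD was measured; cells without PD were not analysed here, and every result below describes how the paralogues appeared in PD-treated cells and how far the replicates differed.

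The members were the probes whose RefSeq accession belongs to 1 of the 10 genes. There were 16 such probes among 27235 probes that could be matched to any of 20660 genes, and all 10 genes were represented. Smarcc1 and Arid1b had 3 probes each, Smarca4 and Arid1a had 2, and the other 6 genes had 1; every probe was a single spot per array. Where a gene had several probes, they are numbered from the highest to the lowest mean level. The signal given here is the processed signal of the scanner software, an intensity in arbitrary units after background subtraction. The level is its log2 minus the 75th percentile of the same array over probes that were not controls, so that 0 stands for a signal of 551, 511 and 527 on replicates 1 to 3. A probe was taken as detected where the software marked it well above background. The lowest signal so marked was 10.1, 11.4 and 10.3 on replicates 1 to 3. These values are no fixed limit, since some probes above them were not marked. Signals depend on the sequence of each probe as well as on the amount of RNA. The levels of different genes are therefore given side by side, and no order of RNA amounts was drawn from them.

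The promoters of the ATPase genes and of the actin-related genes are shown because the first pair gives the complex its motor and the second holds Actl6b, the member that was not detected on all arrays. Each line gives the 250 bases before the start of the gene in the direction of transcription, from RefSeq on the GRCm38.p6 build, with every CG dinucleotide in capitals.
Smarca4, chr9:21615919-21616168, + strand: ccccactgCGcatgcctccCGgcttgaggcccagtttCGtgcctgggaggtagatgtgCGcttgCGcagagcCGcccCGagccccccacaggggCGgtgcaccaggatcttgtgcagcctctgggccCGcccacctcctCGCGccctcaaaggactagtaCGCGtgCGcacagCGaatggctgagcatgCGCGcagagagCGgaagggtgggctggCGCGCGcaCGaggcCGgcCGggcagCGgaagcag
Smarca2, chr19:26604910-26605159, + strand: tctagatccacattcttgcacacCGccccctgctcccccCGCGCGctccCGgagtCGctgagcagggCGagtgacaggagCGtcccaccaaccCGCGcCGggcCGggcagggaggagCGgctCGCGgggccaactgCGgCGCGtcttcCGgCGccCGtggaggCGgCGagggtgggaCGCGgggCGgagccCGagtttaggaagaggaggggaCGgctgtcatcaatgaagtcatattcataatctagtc
Actl6a, chr3:32708296-32708545, + strand: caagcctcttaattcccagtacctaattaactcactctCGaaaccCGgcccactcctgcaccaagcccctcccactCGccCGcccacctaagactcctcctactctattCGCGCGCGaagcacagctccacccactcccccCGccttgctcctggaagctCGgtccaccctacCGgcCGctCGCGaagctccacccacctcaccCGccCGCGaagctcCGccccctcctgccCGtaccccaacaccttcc
Actl6b, chr5:137553296-137553545, + strand: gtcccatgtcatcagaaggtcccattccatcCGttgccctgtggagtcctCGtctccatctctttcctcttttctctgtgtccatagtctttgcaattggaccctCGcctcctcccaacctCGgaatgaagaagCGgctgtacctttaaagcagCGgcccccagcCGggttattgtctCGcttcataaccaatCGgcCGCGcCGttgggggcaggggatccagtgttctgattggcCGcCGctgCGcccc

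All 4 promoters were rich in CG. That of Smarca4 held 25 CG dinucleotides, that of Smarca2 held 28, that of Actl6a held 19 and that of Actl6b held 15, against a median of 6 over 32851 mouse promoters cut in the same way. The promoters of the remaining members held between 18 and 40, the highest being Smarcc2. Arid1a has 2 listed promoters, with 18 and 33 CG. The TATA box, searched as TATAAA on both strands, was in none of the 11 member promoters and in 12.4% of all promoters. The GC box, GGGCGG on either strand, was in 32.7% of all promoters and in each member promoter except those of Actl6b and Smarcc2. The CCAAT box (CCAAT on either strand; none of the 3 motifs contains another) was present 3 times in the Actl6b promoter and in no other member, and in 33.8% of all promoters. These are matches of letters and do not show that a factor binds there.

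Detection separated Actl6b from the other 9 genes. Every probe of the stem cell set was well above background on all 3 arrays, 9 of 9, and so were 6 of the 7 probes of the other paralogues. In all, 15 of 16 member probes and 9 of 10 member genes were detected, against 72.4% of all probes matched to a gene and 72.8% of all named genes, so detection as such was common. The median level was 0.58 over the 16 member probes, beside -1.57 over all probes with a gene name and 0.24 over those of them that were detected. This describes the probes on the array, and no difference in transcript amount between the paralogues was tested.

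**Figure D1:**
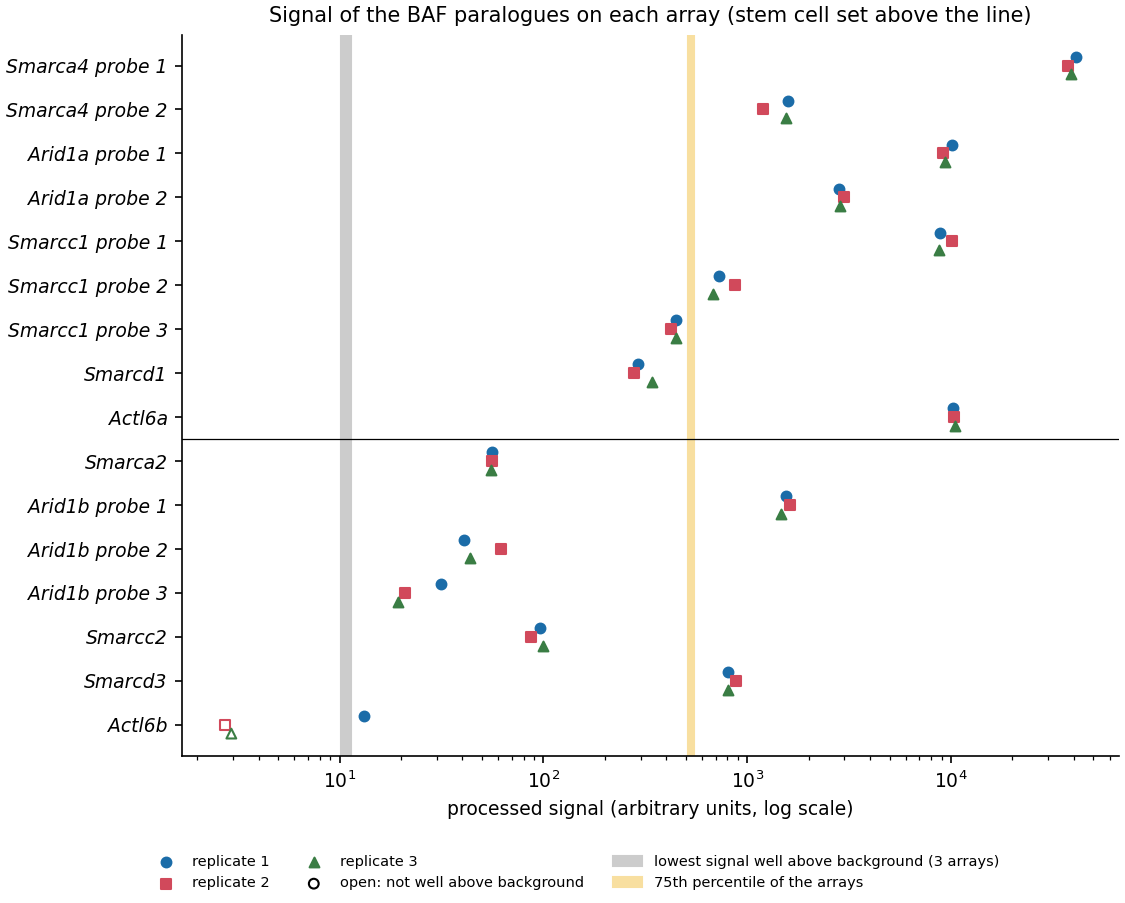
Processed signal (horizontal, log scale) of each member probe on the 3 arrays, with the stem cell set above the line and the other paralogues below it; filled symbols are well above background, open symbols are not. Signals run from 2.73 for Actl6b on replicate 2 to 41145 for Smarca4 on replicate 1, and the symbols of 1 probe mostly lie closer together than the probes of 1 gene.

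The ATPase is the motor of the complex, and a given BAF complex carries either Smarca4 or Smarca2. The brighter Smarca4 probe gave signals of 41145, 37569 and 38604 on replicates 1 to 3. Its level was 6.21 ± 0.02 (SD, n = 3 here and below), the smallest SD among the members. The other Smarca4 probe gave 1581, 1189 and 1556, a level of 1.43 ± 0.19, with replicate 2 lower than the others. The 2 probes carry the accessions of different Smarca4 transcripts, and the dip of replicate 2 was seen with only 1 of them. The single Smarca2 probe gave 55.7, 55.8 and 55.1, a level of -3.25 ± 0.05. Smarca2 was thus well above background on each array. Its signals varied by 0.684% (coefficient of variation) between the replicates, while the software put the error of each signal at 11.1%, 11.4% and 11.2%. The match between the arrays is therefore closer than the error of a single signal, and it is no measure of precision. In RNA from whole cultures, fewer cells with a transcript cannot be told apart from less transcript per cell, for Smarca2 as for any dim member.

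The ARID subunits, Arid1a and Arid1b, help the complex to hold DNA and are never in the same complex. Arid1a was seen by 2 probes. The brighter gave 10061, 9110 and 9378, a level of 4.17 ± 0.02, and the other gave 2834, 2974 and 2860, a level of 2.45 ± 0.09. Both were steady between the arrays. The 3 Arid1b probes did not give 1 picture. Probe 1 gave 1555, 1625 and 1473, a level of 1.55 ± 0.10. Probe 2 gave 40.9, 61.7 and 43.8, a level of -3.46 ± 0.37, with replicate 2 the high one. Probe 3 gave 31.6, 20.9 and 19.4, a level of -4.50 ± 0.33, with replicate 1 the high one. All 3 carry the same transcript accession and all were detected on each array, although probe 1 was 66.2 times as bright as probe 3. With another background correction (normexp, which here also adds 50 to every signal) it was 20.2 times as bright. Which replicate stood out thus changed from probe to probe of Arid1b.

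Each of the 4 members with more than 1 probe showed such a gap. The brightest and dimmest probes differed by 6.05 log2 units in Arid1b, by 4.77 in Smarca4, by 4.39 in Smarcc1 and by 1.72 in Arid1a. With normexp the gaps were, in the same order, 4.34, 4.48, 4.21 and 1.84, so that of Arid1b, whose probe 3 is dim, changed most. The added 50 by itself narrows a gap to so dim a probe. How much of the change came from it was not tested. The sequences of the probes and their place in the transcript were not analysed here, and whether transcript variants or probe properties lie behind the gaps was not tested.

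Smarcc1 and Smarcc2 form the scaffold on which the rest of the complex is assembled. Smarcc1 probe 1 gave 8789, 10115 and 8776, a level of 4.12 ± 0.16. Probe 2 gave 730, 872 and 683, a level of 0.52 ± 0.22. With both probes replicate 2 was the highest, by up to 0.31 and 0.40 log2 units over the lowest array. Probe 3 gave 445, 421 and 448, a level of -0.27 ± 0.04, and did not follow. The Smarcc2 probe gave 96.3, 86.6 and 99.1, a level of -2.50 ± 0.08, and was detected throughout, with replicate 2 the lowest. Smarcc2 is known to replace part of the Smarcc1 as cells leave the pluripotent state, but with probes of such different brightness within Smarcc1 alone, the share of each could not be read from these signals.

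The BAF60 subunits link the complex to transcription factors. Smarcd1, the form of esBAF, gave 292, 277 and 342, a level of -0.81 ± 0.16, with replicate 3 the highest. Smarcd3, the form of heart and muscle, gave 805, 881 and 804, a level of 0.65 ± 0.12. Smarcd3 was therefore plainly detected in PD-treated mESCs, above the 75th percentile of each array. That percentile is over all probes that were not controls, and 52.6% of the detected probes with a gene name had a mean level above it. The third gene of this family, Smarcd2, gave 1043, 601 and 1032, a level of 0.71 ± 0.41. The low value of Smarcd2 came from replicate 2, and its spot lies in 1 of 6 regions of that array in which the software marked many uneven spots; none of the 16 member probes lies there. Whether the position of the spot lies behind the low value was not tested.

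The actin-related subunits sit beside the ATPase. Actl6a, found in stem and progenitor cells, gave 10231, 10330 and 10502, a level of 4.29 ± 0.06. Actl6b, which takes its place when neurons stop dividing, gave 13.1, 2.73 and 2.94. Actl6b was marked well above background on replicate 1 and on neither of the others. A looser mark of the software, positive and significant, was set on replicates 1 and 3 and not on replicate 2. Before background correction its spot read 32.5, 25 and 25.5 against a local background of 19, 18 and 18, while the negative control spots had median readings of 19, 18 and 17.5. The software's own error was 2.78 on replicate 1, or 21.2% of the signal, and as large as 101% and 85.4% of it on the other arrays. Only a bound can be given for Actl6b on replicates 2 and 3. Passing on replicate 1 alone was seen for 371 of the 27235 named probes (1.36%), and passing on replicate 2 or 3 alone for 310 (1.14%) and 199 (0.731%). Of the 308 negative control spots, 5 (1.62%), 16 (5.19%) and 4 (1.3%) were marked well above background on replicates 1 to 3. These were counted on each array whatever the other arrays showed, so the 2 sets of shares are not alike.

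The replicates were then compared over the members. The SD over the arrays ran from 0.015 to 0.367 log2 units in the 15 detected probes, with a median of 0.102, against 0.090 in all 33474 detected probes. Without replicate 2 the median fell to 0.044 in the members and to 0.065 in all detected probes, whereas it was 0.107 and 0.079 without replicate 1, and 0.120 and 0.080 without replicate 3. No detected member varied by more than 1 log2 unit, which 1.87% of all detected single-spot probes did. The scanner software attaches an error to each signal, of about 10% for bright spots. The difference between the highest and lowest array exceeded 2 times its combined error for 2 of the 15 detected probes, Arid1b probes 2 and 3, beside 12.4% of all detected single-spot probes. For the remaining 13 probes the arrays lay within that limit, and the probes of Smarca4 and Smarcc1 whose replicate 2 stood out are among them.

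Over all detected probes the spread was larger at low levels, and the members did not follow this order throughout. With all detected probes divided by level into 4 equal parts, the dimmest part held Smarca2 and Arid1b probes 2 and 3, with SDs from 0.055 to 0.367 beside a median of 0.187 over that part. The next part held Smarcc2 alone, with an SD of 0.077 beside 0.106. The brightest part held 5 members, with SDs from 0.015 to 0.164 beside a median of 0.058. The part below it held 6 members with a median SD of 0.143, beside 0.071 over all its probes. In the plot of SD against level, Smarcc1 probe 2, with an SD of 0.219, lay above the 95th percentile of probes of like level, and the other 14 detected member probes did not.

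**Figure D2:**
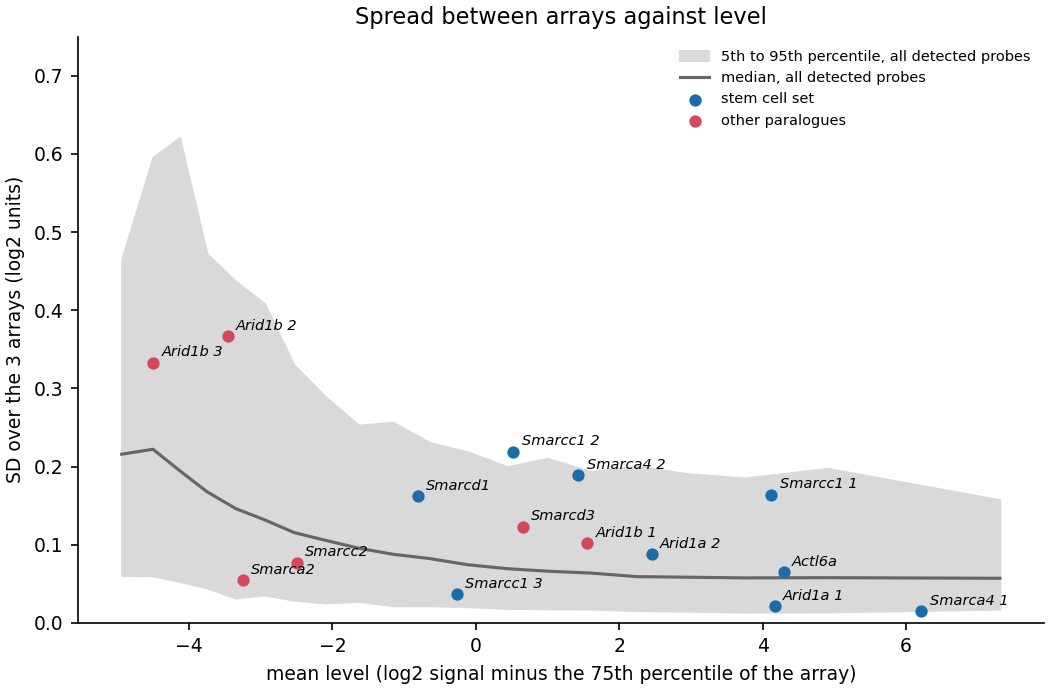
SD over the 3 arrays (log2 units, vertical) against the mean level (horizontal) of the 15 detected member probes, over the median and the 5th to 95th percentile of all 33474 detected probes in 20 bins of level. Smarca4 probe 1 has an SD of 0.015 and Arid1b probe 2 one of 0.367; Smarcc1 probe 2, at 0.219, is the point above the band.

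No array was high for all members. Replicate 2 was the highest for 8 of the 15 detected probes and replicate 1 the lowest for 8, while over all detected probes these shares were 41.4% and 34.4%. With scaling by the array median in place of the 75th percentile, replicate 3 was the highest for 8 of 15 and replicate 2 for 6. Under the other ways of processing replicate 2 was the highest for 7 or 8. Which array was most often the highest thus changed with the array median only. Replicate 1 was the lowest for 7 or 8 probes under each of the 7 ways of processing that were tried.

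The promoters were next set beside detection over the whole array. Of 16374 genes with both a probe and a listed promoter, 73.1% were detected. The share rose with the number of CG in the richest promoter of a gene, from 38.1% of genes with 0 to 4 CG to 72.9% with 5 to 9, 87.2% with 10 to 14 and 91.6% with 15 to 19. It was 93.4% with 30 or more. All 10 members stand in the classes with 15 or more, where most genes were detected, and Actl6b is among the genes of its class that were not. Genes are not independent replicates and this is a description of the array. CG content was not shown to bear on any single member.

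**Figure D3:**
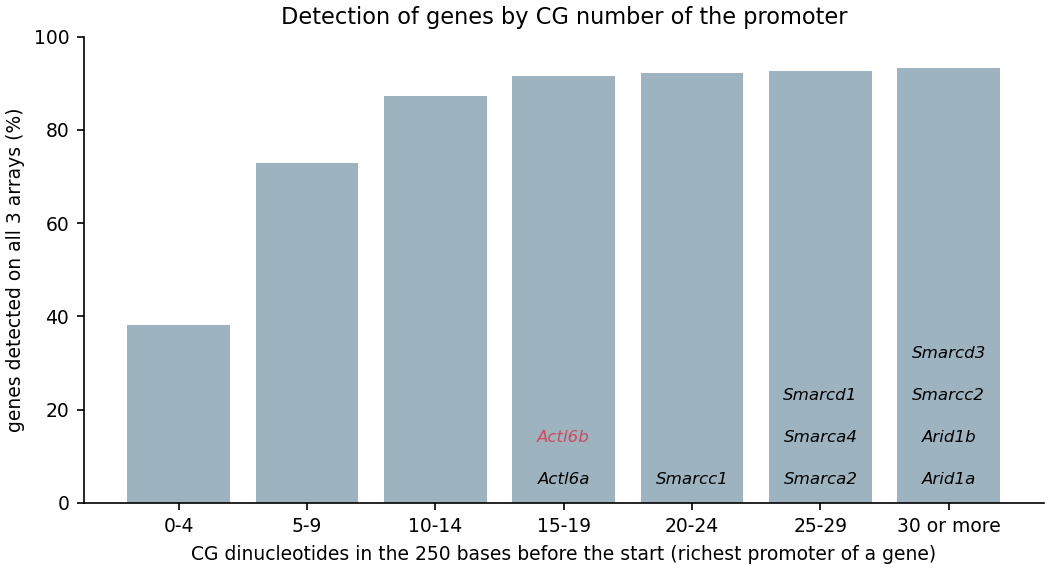
Share of named genes detected on all 3 arrays (vertical, percent) by the number of CG dinucleotides in the 250 bases before the start of the gene (horizontal), with the members written into the bars of their class. The share climbs from 38.1% to 93.4%; Actl6b, in red, is the member that was not detected, in a class where 91.6% of genes were.

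The other subunits of BAF and of its relatives PBAF and ncBAF were measured alongside. All 21 genes had at least 1 probe detected on all 3 arrays, beside 72.8% of all named genes. Of their 30 probes 28 were detected, beside 72.4% of all probes matched to a gene. The exceptions were Bcl11b probe 2, with signals of 17.6, 8.01 and 6.55 and detected on replicate 1 only, and Arid2 probe 3, with 2.42, 2.71 and 2.43 and not detected on any array. Other probes of both genes were detected throughout, up to 1002 for Arid2 on replicate 1. The core subunits Smarcb1 and Smarce1, shared by the BAF and PBAF forms, had levels of 4.47 ± 0.06 for Smarcb1 and of 3.09 ± 0.01 and 2.49 ± 0.08 for the Smarce1 probes. Brd9, which marks ncBAF, had a level of 0.82 ± 0.11, and Brd7, which belongs to PBAF, one of 4.86 ± 0.04.

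Several of these subunits also come as paralogues used in different cells. In the BAF45 family, whose members carry PHD fingers, Phf10 is known from progenitors and Dpf1 and Dpf3 from neurons, and Dpf2 is found widely. The Phf10 probe gave 4243, 4148 and 3874, and the Dpf2 probe gave 14554, 13429 and 13733. The spots of Phf10 and Dpf3 lie in the uneven regions of replicate 2 described for Smarcd2. Dpf3 gave 73.9, 66.2 and 73, a level of -2.90 ± 0.05. Both Dpf1 probes were detected on each array, with 1334, 1801 and 1314 for probe 1 and 905, 694 and 662 for probe 2. Replicate 2 was high with the first and not with the second. The Ss18 probes had levels of 5.07 ± 0.01 and 4.76 ± 0.02, and its neuronal relative Ss18l1 (CREST) gave 163, 137 and 145, a level of -1.84 ± 0.08. Bcl11a, a zinc finger subunit, had levels of -0.36 ± 0.13 and -2.07 ± 0.28, and the brighter probe of Bcl11b had one of -2.63 ± 0.15. Among the subunits known from neurons, Dpf1, Dpf3 and Ss18l1 were thus detected on all arrays, and Actl6b was not.

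**Figure D4:**
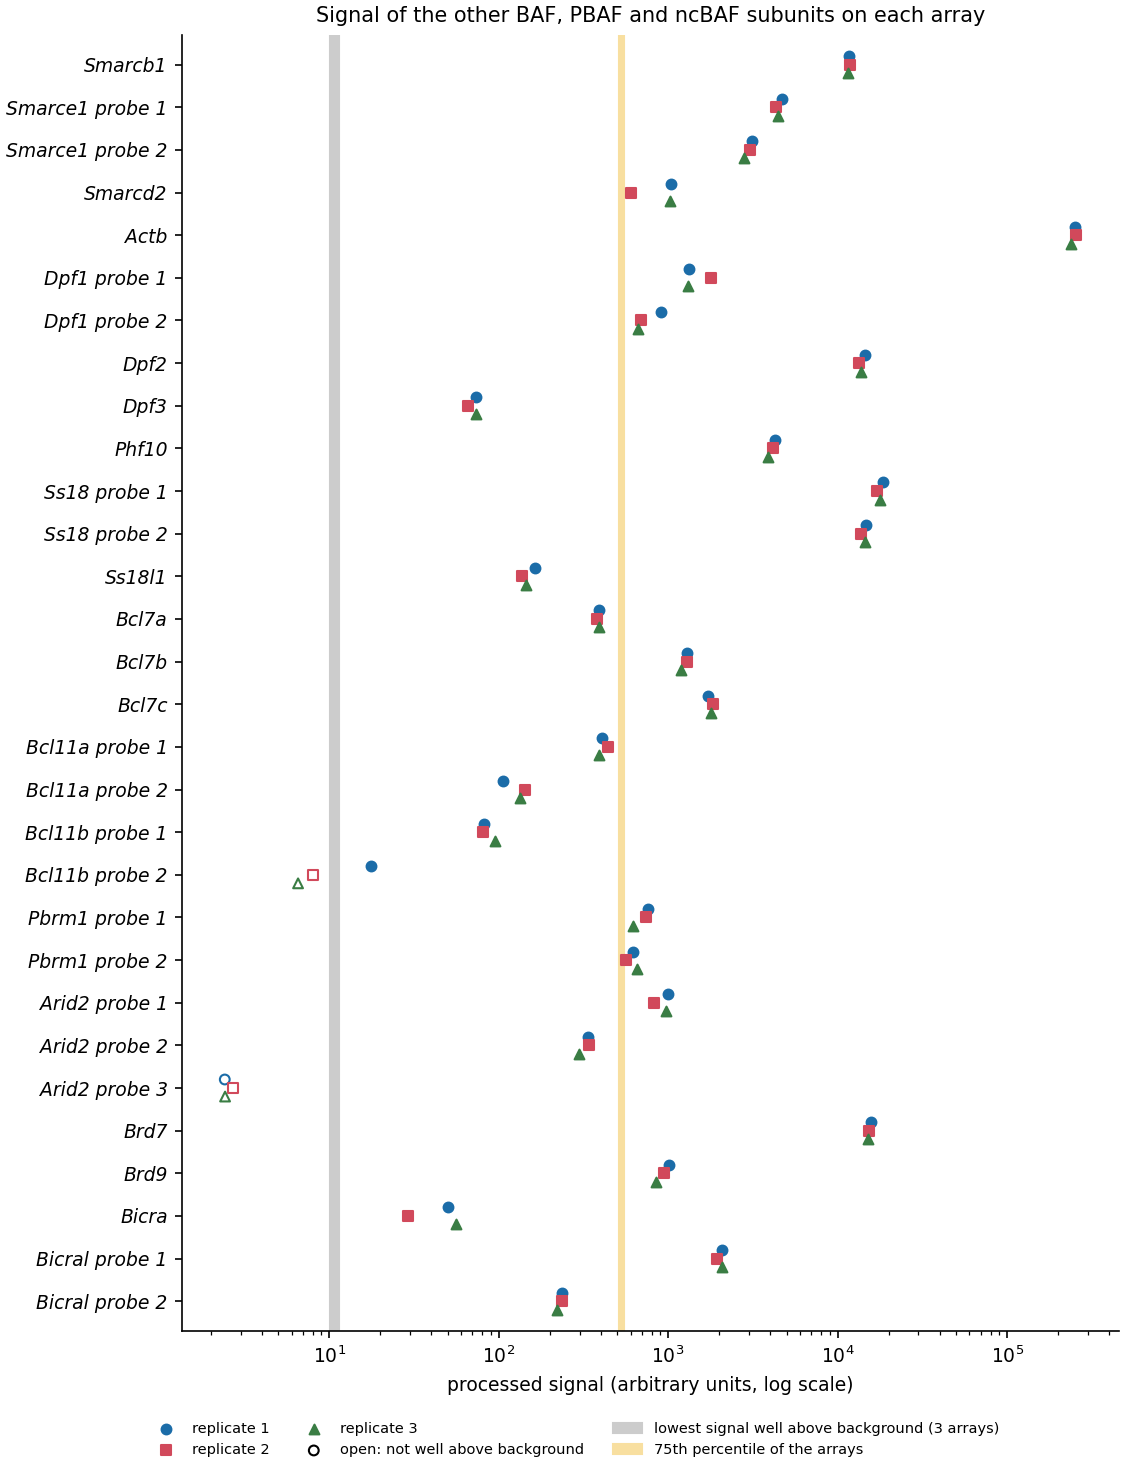
Processed signal (horizontal, log scale) of the 30 probes of the 21 other BAF, PBAF and ncBAF subunits on the 3 arrays; filled symbols are well above background, open symbols are not. Only Bcl11b probe 2 and Arid2 probe 3 have open symbols, and Smarcd2 on replicate 2, at 601, stands apart from 1043 and 1032.

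Other families of remodelling enzymes were as widely detected. Of 15 ATPase genes of the ISWI, CHD and INO80 families and their relatives, 12 had a matched probe. All 12 were detected by each of their 18 probes, beside 72.8% of all named genes. Smarca5, an ATPase of the ISWI family, had signals of 10054, 9587 and 9341. Chd4, an ATPase of the NuRD complex, had 39618, 31266 and 37381, with its spot in an uneven region of replicate 2. Chd3, Chd7 and Srcap had no matched probe.

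Cell type markers were read to place the paralogues. All 10 pluripotency markers were detected, among them Pou5f1, Nanog and Zfp42, so the defining markers of the labelled cell type were present. Pou5f1 varied more than any detected member, with 11265, 16872 and 10239. Of the markers of neurons 8 of 10 were detected. The share over all named genes under this rule was 72.8%, and each list here is to be read beside it. Snap25 had signals of 7600, 7025 and 6287, Syp of 2843, 2828 and 3004 and Tubb3 of 3573, 3535 and 3677, and these were the 3 brightest of the list, whose 16 probes had a median level of -3.84. Map2 gave 37.1, 25.8 and 28.3 with its brighter probe, and the spots of both its probes lie in the uneven regions of replicate 2. Dcx and Neurog2 were not detected. Of the markers of neural progenitors 5 of 6 were detected, all but Fabp7. Of the markers of heart and skeletal muscle 6 of 10 were detected, and Mef2c, Tbx5, Myod1 and Myog were not. Among fibroblast markers 4 of 8 were detected, while Lum, Postn, Col3a1 and Col5a2 fell short. Under the looser mark of the software, positive and significant, 9 of 10 muscle genes and 6 of 8 fibroblast genes passed, beside 81.2% of all named genes, and the counts of the other lists and of the members stayed as given. The mean levels of single probes ranged from -7.83 to 3.71 for neurons, from -7.30 to 0.41 for muscle and from -7.80 to 0.24 for fibroblasts. Probes of genes known from neurons and muscle thus gave signal in the same RNA as Dpf1 and Smarcd3, and the part of differentiated cells in these signals was not tested.

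**Figure D5:**
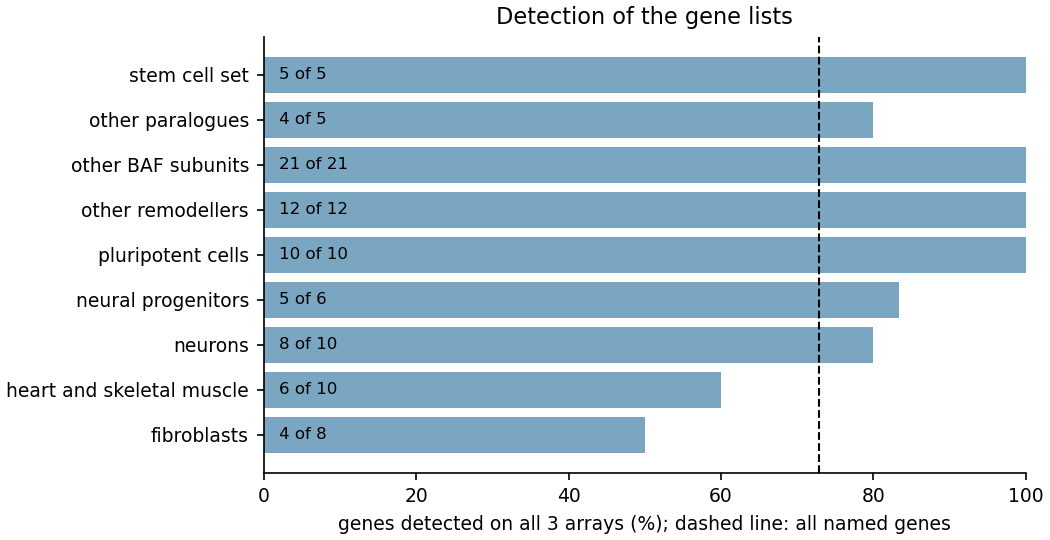
Share of genes detected on all 3 arrays (horizontal, percent) in the paralogue sets, the other subunits, the other remodellers and 5 marker lists, with the number of genes written in each bar and the share over all named genes, 72.8%, as a dashed line. The stem cell set, the other subunits, the other remodellers and the pluripotency markers reach 100%, and the fibroblast markers 50%.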

How the data were processed

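Total RNA of 3 cultures of J1 mESCs treated with PD was measured on 1-colour Agilent arrays. Per the file headers the deposited intensity values were made with Agilent Feature Extraction 10.7.3.1, which subtracted the background, fitted trends across each array and set the detection marks. All arrays share 1 slide and 1 scan day, so no batch could be compared. The authors also deposited a table of log2 values whose normalization is not given in the sources used here, and it served as an alternative. Other deposited marks of the scanner (coded 0 or 1) were used as given. The array grid refers to mm9, and no coordinates were taken from it.

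Probe accessions, stripped of versions, were looked up among RefSeq genes (GRCm38.p6), and 28446 of the 55681 probes stayed without a gene name. Spots marked as outliers were left out, log2 signals of the spots of a probe were averaged, and the 75th percentile of each array was subtracted. A probe counted as detected if at least 50% of its spots were well above background on all 3 arrays, and a gene if any of its probes was. No spot was saturated. Values are mean ± SD over the arrays; the number of arrays limits their precision, and each member probe is 1 spot per array. With 1 group no test between conditions was possible and none was made.

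The members and the gene lists were chosen with earlier results of these data known. Every member was named with all its probes; of the other lists, the text names genes that were not detected, genes whose probes disagreed and the subunits that come as paralogues. Smarcb1, Smarce1, Brd7, Brd9, Smarca5, Chd4 and the markers given with values were picked for the text after their values were seen. The alternatives were other scalings (the median, the percentile over detected probes, quantile normalization), normexp background correction with limma 3.58.1 in R 4.3.3 (offset 50, on median signals because the files hold no mean spot signal), the deposited table, other detection rules and leaving out each replicate. The level and spread calculation was tested on simulated data. Python 3.11.15 was used for the rest.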

Additional observations from a re-analysis of the deposited data

How the results depend on the processing

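Member genes detected stayed at 9 and member probes at 15 with a looser mark, with 2 of 3 arrays, and when each replicate was left out in turn, and the counts of other subunits (19 to 21), other remodellers (12) and all markers together (30 to 38) stayed within 1.5 times of 21, 12 and 33; with the looser mark muscle markers rose from 6 to 9 and fibroblast markers from 4 to 6. The median SD of the members was between 0.086 and 0.113 under the alternatives that kept all replicates, and 0.044 to 0.120 over the sets of 2 arrays, the lowest without replicate 2. The number of members with a range above 1 log2 unit was 0 and became 1, Actl6b, without a filter on dim probes; it was 0 in every set of 2 arrays. The median level of the 16 member probes, 0.58, became 4.32 with the median of each array, -1.34 with the percentile over detected probes and 9.49 in the deposited table, which have other zero points: all probes moved by a median of 3.74, -1.92 and 8.90. Over the sets of 2 arrays it ran from 0.49 to 0.64. With normexp and its offset of 50 the median of the member probes was 0.66, and all probes on the array moved by a median of 1.21. Of the 16 member probes 8 moved by more than their SD and not together. Smarca2 went from -3.25 to -2.44, Arid1b probe 3 from -4.50 to -2.78 and Actl6b from -6.81 to -3.14. Low signals limit what can be said of Actl6b, which was not well above background on replicates 2 and 3. The looser mark was set on replicate 3 and not on replicate 2. No paired analysis was possible because the arrays have no second group to pair with.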
